A study of Mesocentrotus franciscanus with 18 samples.

Results

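Capn, a calpain gene (SPU_023461), and Mab21, a gene of the mab-21-like family (SPU_001059), are the 2 genes described here, out of 127198 Trinity gene groupings counted in the red sea urchin *Mesocentrotus franciscanus*. They were chosen by their counts in the radial nerve libraries of 2010. Capn had 1278 counts in RN-L and 16974 in RN-S, and Mab21 had 473 counts in RN-L and 4497 in RN-S. Only 1 grouping carried each pair of counts. The difference between Large and Small in RN therefore chose both genes, and in RN it is given below as a description with no test.

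The libraries come from 3 tissues of Large (old) and Small (young) wild-caught animals. These were radial nerve cord (RN), esophagus (ES) and Aristotle's lantern muscle (ALM), the muscle that moves the jaws. The groups are RN-L, RN-S, ES-L, ES-S, ALM-L and ALM-S, with 3 libraries each and 18 in all. Every library is a pool of RNA from several animals of 1 size collected in 1 sampling year (2010, 2011 or 2013), so the spread within a group is between pools, in which differences between single animals are averaged. The study estimated age from the diameter of the test with a growth curve.

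Calpains are calcium-dependent cysteine proteases of the cytoplasm. They cut their substrates, many of them proteins of the cytoskeleton and its attachment to the membrane, at a few sites rather than degrading them whole, and they are best known from muscle and nerve. Mab-21 was first described in the nematode *Caenorhabditis elegans*, where it sets the identity of sensory rays in the male tail. In vertebrates its relatives Mab21l1 and Mab21l2 are needed for development of the eye and parts of the nervous system, and the family shares the fold of nucleotidyltransferases.

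The study measured both genes by quantitative PCR as well, and its primers for them are shown because they tie the names Capn and Mab21 to a sequence in this species. They are written 5′ to 3′, the reverse primers on the opposite strand, and capitals mark the last 5 bases at the 3′ end, which the polymerase extends.
Capn forward primer: ccaccaggccactatgTCATT
Capn reverse primer: cgcaacagaaagtcaccCTCTT
Mab21 forward primer: catgtcactttgggtcgagTTTAT
Mab21 reverse primer: cgtttgaaaccgtgaTCGAA
The Capn primers have 21 and 22 bases and the Mab21 primers 24 and 20 bases, and GC content was between 41.7 and 52.4%. The assembled transcripts and genome positions were not analysed here.

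Total counts per library ranged from 7383210 to 11547218. The 50 most abundant groupings took 22.6 to 26.0% of a library in RN-L, 33.7 to 44.7% in RN-S and 49.8 to 67.7% in ALM. They took 26.6 to 33.9% in ES-S. In ES-L they took 48.4% in 2010, against 22.9% in 2011 and 25.3% in 2013. The library names fall into 3 numbered runs, one with the 3 RN-L libraries alone, one with RN-S 2010 and 2011, and one with the other 13, so size and run of names cannot be told apart within RN. The TMM factors, edgeR's correction of library size for a few very abundant transcripts, were from 0.48 to 0.96 in ALM, against 0.80 to 1.52 in ES and 0.93 to 1.46 in RN, with ALM-S 2010 (0.48) and ALM-L 2011 (0.58) the lowest. The factor of ES-L 2010 was 0.80, against 1.45 in ES-L 2011 and 1.52 in ES-L 2013. Levels below are CPM, counts scaled to the library total times its TMM factor, and they compare 1 gene between libraries, not Capn with Mab21, since the lengths of the transcripts are not known here. In such bulk samples fewer cells of a type and less RNA per cell cannot be told apart.

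Capn was measured deeply in all 6 groups. It had 1278, 2952 and 3911 counts in RN-L and 16974, 14195 and 12260 in RN-S (2010, 2011 and 2013, here and below). In ES it had 622, 4175 and 4171 counts in ES-L and 3599, 5671 and 3519 in ES-S. In ALM it had 13421, 3617 and 9456 counts in ALM-L and 5868, 14752 and 17083 in ALM-S. No library of any tissue lacked Capn, and its lowest count was that of ES-L 2010.

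Capn levels averaged 230.0 ± 85.2 CPM in RN-L, 1399 ± 218 in RN-S, 261 ± 142 in ES-L, 409.6 ± 100.3 in ES-S, 915 ± 341 in ALM-L and 1754 ± 404 in ALM-S (SD, n = 3 each). The order from the highest was ALM-S, RN-S, ALM-L, ES-S, ES-L and RN-L. In this order 1 pair of neighbours did not overlap, ALM-L (565.8 to 1248 CPM) and ES-S (335 to 524 CPM). ALM-S, RN-S and ALM-L thus formed an upper set whose ranges met from one to the next, and ES-S, ES-L and RN-L a lower set. Without the TMM factors the top of the order changed, with 1476 ± 40.9 CPM in RN-S and 1158 ± 493 CPM in ALM-S (SD, n = 3 each).

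**Figure D1:**
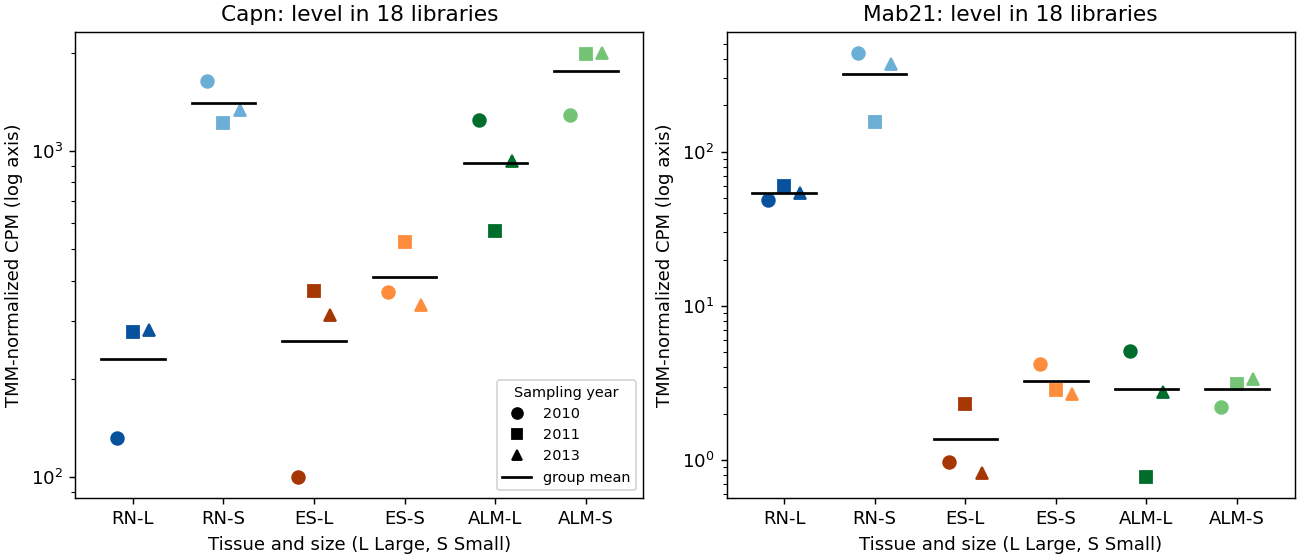
Level of Capn (left) and Mab21 (right) in each of the 18 libraries, as TMM-normalized CPM on a log axis, by tissue and size. Symbols give the sampling year and black lines the mean of each group. Capn is at 132 to 281 CPM in RN-L, below every RN-S library (1217 to 1640 CPM), while Mab21 is at 48.8 CPM or more in every RN library and at 5.11 CPM or less in every library of ES and ALM.

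Mab21 had most of its counts in the nerve cord. It had 473, 642 and 752 counts in RN-L and 4497, 1816 and 3392 in RN-S. In ES it had 6, 26 and 11 counts in ES-L and 41, 31 and 28 in ES-S. In ALM it had 55, 5 and 28 counts in ALM-L and 10, 23 and 29 in ALM-S. It was detected in all 18 libraries, but outside RN on few counts, so that counting alone leaves a wide range. The 5 counts of ALM-L 2011 are 0.447 CPM without TMM factors, with a 95% Wilson interval from 0.191 to 1.05 that covers counting error only.

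Mab21 levels averaged 54.4 ± 5.78 CPM in RN-L, 320.3 ± 146 in RN-S, 1.37 ± 0.818 in ES-L, 3.25 ± 0.840 in ES-S, 2.88 ± 2.17 in ALM-L and 2.89 ± 0.618 in ALM-S (SD, n = 3 each). The order from the highest was RN-S, RN-L, ES-S, ALM-S, ALM-L and ES-L. RN-S (156 to 435 CPM) did not overlap RN-L (48.8 to 60.3 CPM), and RN-L did not overlap ES-S (2.67 to 4.21 CPM). The 4 groups of ES and ALM overlapped each neighbour in the order. RN-L, the lower of the 2 nerve groups, averaged 16.7-fold more than the next group, ES-S.

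Both genes were lower in RN-L than in RN-S in 3 of 3 years, which is the pattern they were chosen for. The years of the RN libraries are those of their titles, while another label gives 2010 for all 6, so RN ratios by year, RN pairs of the same year and the year block rest on the titles. For Capn the log2 ratio of RN-L over RN-S was −3.64 in 2010, −2.13 in 2011 and −2.25 in 2013, and for Mab21 it was −3.16, −1.37 and −2.78. The counting error of these ratios was at most 0.07 (SE). The years thus differ by more than the counting error. For Mab21 it was RN-S that varied, at 435, 156 and 370.5 CPM in the 3 years, while RN-L stayed between 48.8 and 60.3 CPM. The fitted log2 fold change over the 3 years was −2.69 for Capn (SE 0.35) and −2.64 for Mab21 (SE 0.40), a 6.45-fold and a 6.24-fold lower level in RN-L. In this comparison 21.7% of the 29012 features tested were called, with 11.4% higher and 10.3% lower in RN-L. A replicate block for the year left 3818 called. A feature is a grouping or a linked gene, and a call needed both an edgeR adjusted p under 0.05 and a log2 fold change beyond 1 in size.

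Genes of contractile cells moved with Capn within RN. The summed level of the 7 contractile markers, which include Actinin and the tropomyosin gene Tropmy1, was 1934 to 2497 CPM in RN-L and 16240 to 43910 CPM in RN-S, beside 1776 to 1955 in ES-L, 3158 to 3550 in ES-S, 30300 to 38890 in ALM-L and 57920 to 86830 in ALM-S. All 7 were lower in RN-L than in RN-S, with a median log2 fold change of −3.28, and none was at 0 in any group. Calpn (SPU_015595) is a gene other than Capn. It had the highest mean of the 7 in RN-S, at 14410 ± 10350 CPM, against 7845 ± 1107 in ALM-L and 9233 ± 2311 in ALM-S (SD, n = 3 each). Actinin, Tropmy1, ProjL and Mrlc averaged less in RN-S than in either ALM group, and Ttn and Fhod3 lay between the ALM groups. Tropmy1 was at 511 ± 71.7 CPM in RN-L and 4719 ± 1426 in RN-S (SD, n = 3 each). The part of this difference in the values of Capn and Mab21 was not tested. These markers, like the other marker lists here, were picked by the study for an effect of size in one of the tissues.

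Set against the sum of the 7 contractile markers of the same library, a ratio that no scaling changes, Capn was higher in RN-L. Capn had 67.0, 111 and 145 counts per 1000 contractile marker counts in RN-L, against 37.4, 53.8 and 82.5 in RN-S, so that RN-L was the higher in each year. The ranges overlapped. This ratio was 56.4 to 189.5 in ES-L, 102 to 166 in ES-S, 14.6 to 35.7 in ALM-L and 14.8 to 34.4 in ALM-S. Calpn, at 6036 to 25980 CPM in RN-S and 178 to 604 CPM in RN-L, is part of the marker counts. The sum in RN-S leans on Calpn. Ratios without Calpn or to single markers were not computed, so the order of RN-L and RN-S holds for the sum only. Mab21 per 1000 contractile marker counts was 24.2 to 28.0 in RN-L and 6.88 to 22.8 in RN-S, without overlap, and 1.19 or less in every library of ES and ALM. In ALM, where contractile markers were the most abundant, Mab21 was at 0.147 or less. Capn, Mab21 and the markers were all chosen for an effect of size. The order of RN-L and RN-S in both ratios therefore supports nothing by itself.

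Nerve markers went in the opposite direction to Mab21, a contrast that the choice of both had set. The 12 used here come from genes the study chose on RN-L against RN-S, and all 12 were higher in RN-L. Apart from Mab21, which is on that list, 112 of the study's Nerve function genes were tested in RN, and 10 were lower in RN-L. These, Slc5a7_4 and Mtnr1b_1 among them, are not in the 12. The summed level of the 12 synaptic and transmitter genes, Neurx and the tyrosine hydroxylase gene Th among them, was 651 to 741 CPM in RN-L and 93.5 to 107 CPM in RN-S, beside 32.7 to 58.8 in ES-L, 45.9 to 57.1 in ES-S, 28.5 to 75.8 in ALM-L and 40.2 to 103 in ALM-S. By their sum alone RN-S was thus not separate from ALM-S, while the single gene Th was at 25.7 ± 2.51 CPM in RN-S and 0.157 ± 0.0550 in ALM-S (SD, n = 3 each). That sum leans on Pclo_1, the piccolo gene, at 23.05 to 58.85 CPM in ALM-S and 15.33 to 38.85 in ALM-L. Pclo_1 was at 33.34 to 50.91 CPM in RN-L and 7.344 to 10.2 in RN-S. Of the 12 markers, 11 had a positive log2 difference of RN-S from ALM-S and 1, Pclo_1, a negative one. The ratios below include Pclo_1, and its part in them was not tested. Mab21 counts per nerve marker count were 0.0730 to 0.0890 in RN-L and 1.45 to 4.65 in RN-S, against 0.0252 to 0.0392 in ES-L, 0.0502 to 0.0755 in ES-S, 0.0275 to 0.0741 in ALM-L and 0.0329 to 0.0546 in ALM-S. On this scale RN-S stood apart from the other 5 groups, and RN-L overlapped ES-S and ALM-L. The choice of Mab21 and of the markers set RN-S above RN-L on this scale, so that distance supports nothing by itself. Of the remaining markers, the 13 biomineralization genes summed to 15.5 to 36.7 CPM in RN-L and 136.5 to 362 in RN-S, and the 4 cilia genes to 40.4 to 64.2 CPM in RN-L and 109 to 174 in RN-S. Gad and Th were at 0 in ALM-L and Syt12 in ALM-S, and no nerve marker was at 0 in RN or ES. The part of these marker lists in the values of both genes was not tested.

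**Figure D2:**
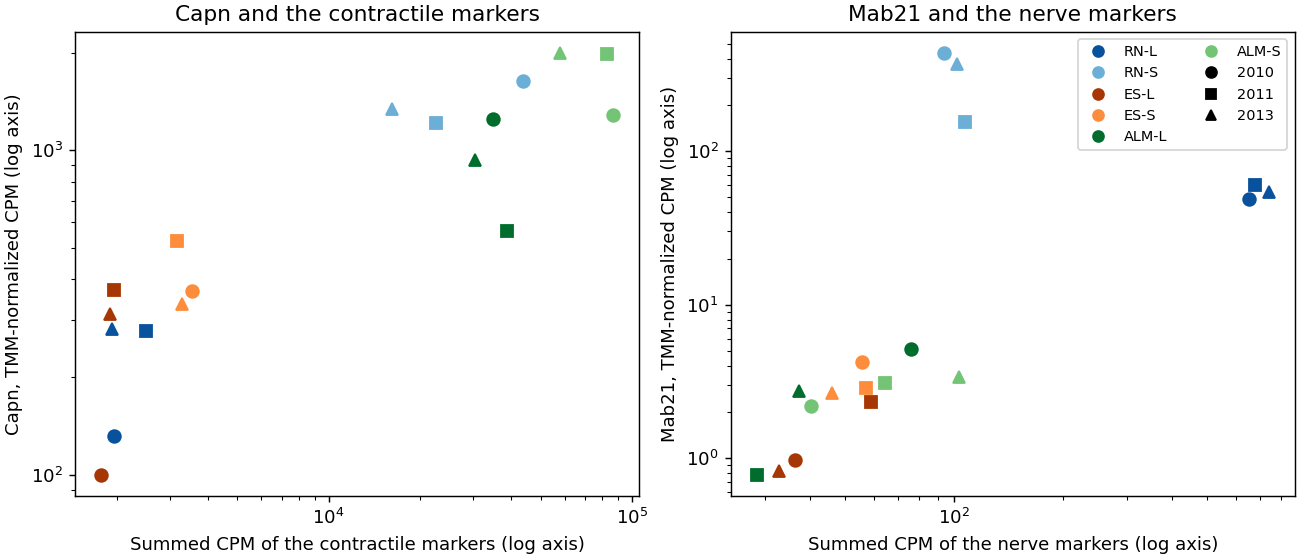
Level of Capn against the summed level of 7 contractile markers (left) and of Mab21 against the summed level of 12 nerve markers (right) in 18 libraries, all as CPM on log axes. Colours give tissue and size and symbols the sampling year. RN-S has Capn near that of ALM and 16240 to 43910 CPM of contractile markers, of which Calpn alone has 6036 to 25980 CPM. For Mab21, RN-S lies above all other groups at 93.5 to 107 CPM of nerve markers.

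The effect of size on Capn in the other tissues was not used to choose it. In ALM, Capn was at 1248, 565.8 and 931 CPM in ALM-L and at 1288, 1984 and 1991 CPM in ALM-S. All ALM-L libraries were below all ALM-S libraries, but ALM-L 2010 and ALM-S 2010 were nearly level. The log2 ratio of ALM-L over ALM-S was −0.05 in 2010, −1.81 in 2011 and −1.10 in 2013. The fitted log2 fold change was −0.94 (SE 0.42, 95% interval −1.88 to 0.01) and did not pass the test (edgeR, Benjamini-Hochberg adjusted p = 0.74). In ALM 1 of 24482 features was called (0.00408%).

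In ES, Capn was at 100.1, 370.5 and 313 CPM in ES-L and at 369.7, 524 and 335 CPM in ES-S. ES-L 2010 was the lowest of all 18 libraries, and the groups overlapped. The log2 ratio of ES-L over ES-S was −1.88, −0.50 and −0.10 in the 3 years, and the fitted log2 fold change was −0.55 (SE 0.50, 95% interval −1.70 to 0.60, edgeR, Benjamini-Hochberg adjusted p = 0.89). Without ES-L 2010 the log2 fold change was −0.18 (edgeR, adjusted p = 0.75). In ES 1 of 30159 features was called (0.00332%).

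Mab21 did not pass the test in either tissue. In ALM its level was 5.11, 0.782 and 2.76 CPM in ALM-L and 2.20, 3.09 and 3.38 CPM in ALM-S, and the ALM-S range lay within that of ALM-L. The log2 ratio of ALM-L over ALM-S was 1.22, −1.98 and −0.29 in the 3 years, with counting errors of 0.50, 0.71 and 0.38 (SE). The fitted log2 fold change of 0.02 (SE 0.65, 95% interval −1.43 to 1.48, edgeR, Benjamini-Hochberg adjusted p = 0.999) had no stable sign. It was −0.70 without ALM-L 2010, −0.14 without ALM-S 2010 and −0.29 when a replicate block held the year. In ES its level was 0.966, 2.31 and 0.826 CPM in ES-L and 4.21, 2.86 and 2.67 CPM in ES-S, without overlap. Its log2 ratio of ES-L over ES-S was −2.12, −0.31 and −1.69, and the fitted log2 fold change was −1.14 (SE 0.53, 95% interval −2.35 to 0.06, edgeR, Benjamini-Hochberg adjusted p = 0.64). Without ES-L 2011 the log2 fold change was −1.76 (edgeR, adjusted p = 0.55).

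**Figure D3:**
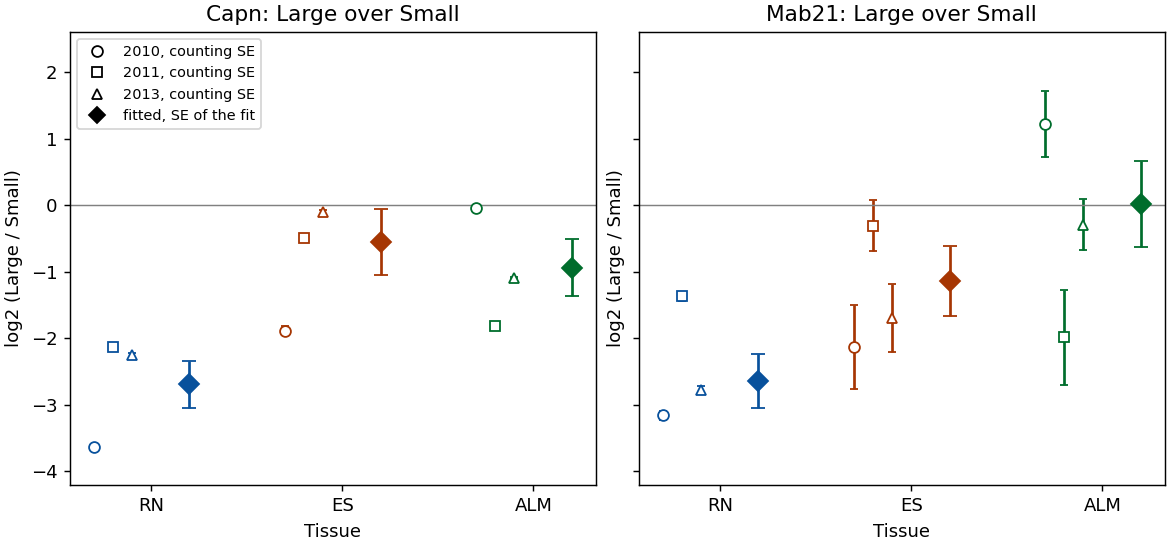
Log2 ratio of Large over Small for Capn (left) and Mab21 (right) in RN, ES and ALM. Open symbols are single sampling years with their counting error (SE), and filled diamonds the fitted log2 fold change with the SE of the fit. RN is the comparison that chose the genes, with fitted values of −2.69 and −2.64, and in ES and ALM the fitted values lie between −1.14 and 0.02.

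Whether the log2 fold change of Large over Small differed between ES and ALM was tested as an interaction, ES minus ALM. The difference was 0.29 on the log2 scale for Capn (SE 0.61, 95% interval −1.001 to 1.58) and −1.24 for Mab21 (SE 0.76, 95% interval −2.83 to 0.35), and neither passed (edgeR, Benjamini-Hochberg adjusted p = 1.0 for both). In this comparison 12 of 39512 features were called (0.0304%, with 0.0152% in each direction). The intervals include differences of more than 1 log2 unit for each gene. With 1 library left out the difference for Mab21 ran from −1.88 (without ES-L 2011) to −0.56 (without ALM-L 2010). The same difference with RN was not tested, since the effect in RN chose the genes.

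Between tissues, Mab21 was higher in RN than in ALM and in ES, and Capn was lower in RN and in ES than in ALM. These comparisons average the Large and the Small group of each tissue. The RN side holds the libraries on whose counts both genes were chosen. Tests of RN against ALM or ES thus lean in part on that choice, and how far was not tested. Mab21 was 44.7-fold higher in RN than in ALM (log2 difference 5.48, SE 0.42, edgeR, Benjamini-Hochberg adjusted p = 1.7e-08) and 61.9-fold higher in RN than in ES (log2 difference 5.95, SE 0.43, edgeR, Benjamini-Hochberg adjusted p = 7.6e-09). It was higher in RN in 6 of 6 pairs of the same size and year against either tissue. The background is high here, since 37.3% of the 39512 features were called in RN against ALM (20.8% higher in RN) and 37.8% in RN against ES (16.2% higher in RN).

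Capn was 2.23-fold lower in RN than in ALM (log2 difference −1.16, SE 0.31, edgeR, Benjamini-Hochberg adjusted p = 0.0064), where 16.5% of all features were called lower. Of the contractile markers 6 of 7 were called lower in RN as well, with a median log2 difference of −2.27 beside 0.10 over all features, and their part was not tested. The 2 sizes had unequal values. In Large animals the log2 difference of RN-L from ALM-L was −1.99 (SE 0.45) and negative in 3 of 3 years, and in Small animals that of RN-S from ALM-S was −0.33 (SE 0.43), with 2 years negative and 1 positive. RN-L and ALM-L share no run of library names. Among the 7 Small libraries of the run that all tissues share, where RN-S 2013 alone stands for RN and is assumed to vary like the others, the log2 difference was −0.38 (SE 0.44). Without TMM factors the difference over all libraries was −0.46 (edgeR, adjusted p = 0.39), but leaving them out also moved the median of all features by 0.73, and relative to that median it was −1.19.

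Against ES, Capn in RN had a log2 difference of 0.79 (SE 0.31, edgeR, Benjamini-Hochberg adjusted p = 0.047), which is under the fold change required for a call. In Large animals RN-L and ES-L differed by −0.18 (SE 0.44), with ranges of 132 to 281 CPM in RN-L and 100.1 to 370.5 CPM in ES-L that overlap. In Small animals RN-S was above ES-S by 1.77 (SE 0.45), with 1217 to 1640 CPM in RN-S and 335 to 524 CPM in ES-S. With RN-S 2013 alone, in the same 7 libraries, it was 1.73 (SE 0.39). These values within a size have RN-S or RN-L on one side, where the choice of Capn set it high or low, and are given with no test.

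Capn was 3.87-fold lower in ES than in ALM (log2 difference −1.95, SE 0.32, edgeR, Benjamini-Hochberg adjusted p = 7.1e-05), where 40.2% of all features were called, 25.3% higher and 14.9% lower. The difference was of like size in both sizes, at −1.81 (SE 0.45) for ES-L from ALM-L and −2.10 (SE 0.45) for ES-S from ALM-S, and negative in 6 of 6 pairs of the same size and year. Contractile markers were lower in ES as well, with 7 of 7 called and a median log2 difference of −4.40, beside 0.16 over all features, and their part was not tested. Mab21 did not pass between ES and ALM (log2 difference −0.47, SE 0.38, 95% interval −1.26 to 0.33, edgeR, Benjamini-Hochberg adjusted p = 0.34), on 5 to 55 counts a library.

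**Figure D4:**
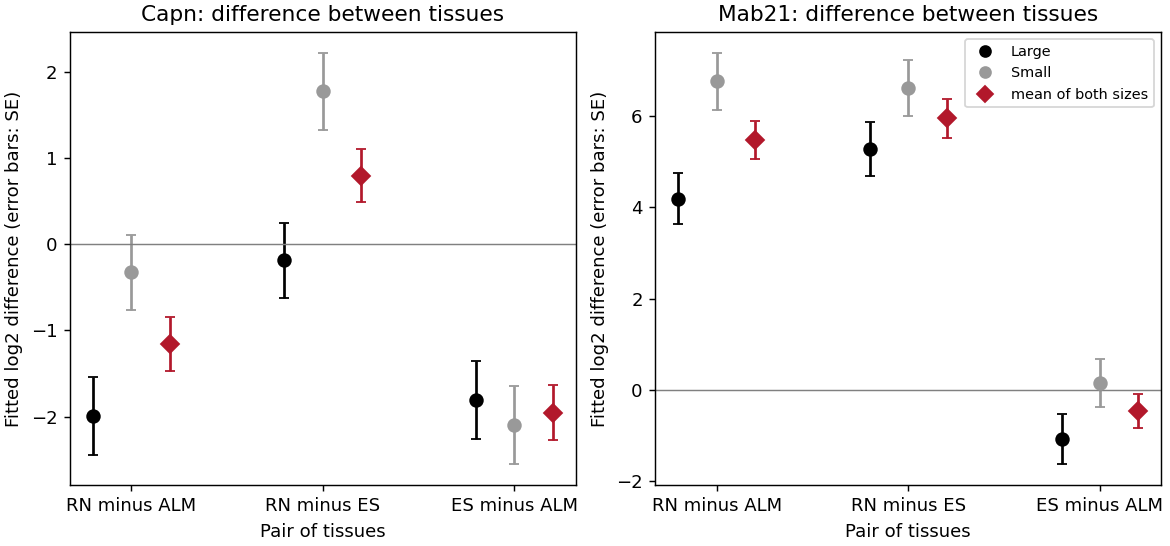
Fitted log2 difference between tissues for Capn (left) and Mab21 (right), with its SE, for Large animals (black), Small animals (grey) and the mean of both sizes (red). Mab21 lies above 4 in all RN comparisons, and Capn in RN differs from ALM by −1.99 in Large and −0.33 in Small animals.

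The count of Capn relative to that of Mab21 in the same library set RN apart from ES and ALM without any scaling. It was 2.70, 4.60 and 5.20 in RN-L and 3.77, 7.82 and 3.61 in RN-S. In ES it was 104, 161 and 379 in ES-L and 87.8, 183 and 126 in ES-S. In ALM it was 244, 723 and 338 in ALM-L and 587, 641 and 589 in ALM-S. All RN libraries were below all others, RN-L overlapped RN-S, and the 3 ALM-S libraries were above every ES library.

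Partners of calpain were taken from the pathway on regulation of cell mechanics by calpain in the Ingenuity Pathway Analysis that the study ran on genes differing with size in RN. The pathway's members are thus genes chosen on that contrast, and their counts in RN against another tissue support nothing by themselves. Of the 7 besides Capn 4 were linked to groupings, namely Actinin (the actin cross-linker alpha-actinin), BetaGi (an integrin beta subunit) and the subunits Cnga3_2 and Cngb1 of cyclic nucleotide-gated channels. Against ALM, 3 rose in RN and 1 fell, with a median log2 difference of 1.94 beside 0.10 over all features, of which 20.8% rose and 16.5% fell. The median was 3.72 for RN-L from ALM-L and 0.16 for RN-S from ALM-S. Actinin fell in RN by 2.27 on the log2 scale (SE 0.23, edgeR, Benjamini-Hochberg adjusted p = 5.2e-07), the direction of Capn, at 1122 ± 105 CPM in RN-L, 5868 ± 2043 in RN-S, 8004 ± 1009 in ALM-L and 19050 ± 2392 in ALM-S (SD, n = 3 each). Cngb1 rose in RN by 2.33 on the log2 scale, with 43.2 ± 6.18 CPM in RN-L and 6.22 ± 0.809 in RN-S, against 2.61 ± 0.694 in ALM-L and 3.97 ± 1.59 in ALM-S (SD, n = 3 each). BetaGi rose by 1.54, with 62.3 ± 27.9 CPM in RN-L and 5.65 ± 0.842 in RN-S, against 5.93 ± 1.81 in ALM-L and 6.97 ± 0.378 in ALM-S (SD, n = 3 each). Cnga3_2 was at 13.4 ± 3.27 CPM in RN-L and 2.90 ± 1.88 in RN-S, against 0.0850 ± 0.0791 in ALM-L and 0.0388 ± 0.0673 in ALM-S (SD, n = 3 each). Against ES, 3 rose and 0 fell in RN, beside 16.2% and 21.6% of all features, and Actinin was among those that rose. For the effect of size edgeR called 0 of 3 tested in ALM and 0 of 4 in ES. An unadjusted edgeR p under 0.05 was found for 1 (Actinin) in ALM and 0 in ES. Over all features it was found for 1683 of 24482 in ALM and 2438 of 30159 in ES, here and for the lists below.

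Calcium is what activates calpain, and 20 of the 21 other Calcium toolkit genes that the study listed for RN were linked. The list was chosen on RN-L against RN-S and most of its members are high in RN-L, so its counts in RN against another tissue lean on RN-L and support nothing by themselves. Of the 19 tested, 15 rose and 1 fell in RN against ALM (median log2 difference 2.37), beside 20.8% and 16.5% of all features. In RN against ES, 14 rose and 1 fell (median 1.91, beside −0.03 over all features, of which 16.2% rose and 21.6% fell). The median was 3.61 for RN-L from ALM-L and 1.12 for RN-S from ALM-S. In ES against ALM, 5 rose and 2 fell (median 0.57), near the 25.3% and 14.9% of all features. The 3 with the highest fitted values were Trpv6L (a calcium channel of the TRPV family), Casr (the calcium-sensing receptor) and Slc24a2_1 (a sodium/calcium exchanger). Trpv6L was at 22.1 ± 7.13 CPM in RN-L and 2.74 ± 0.764 in RN-S, against 0.168 ± 0.125 in ALM-L and 0.0897 ± 0.155 in ALM-S (SD, n = 3 each). Casr was at 14.5 ± 5.10 CPM in RN-L and 1.85 ± 0.770 in RN-S, against 0.189 ± 0.247 in ALM-L and 0.0732 ± 0.127 in ALM-S (SD, n = 3 each). Slc24a2_1 had 6.94 ± 2.23 CPM in RN-L and 0.843 ± 0.285 in RN-S, against no count in ALM-L and 0.161 ± 0.176 CPM in ALM-S (SD, n = 3 each). EFCAB2, an EF-hand protein, was the member that fell, at 4.39 ± 0.959 CPM in RN-L and 18.7 ± 6.31 in RN-S, against 36.9 ± 18.1 in ALM-L and 31.3 ± 17.9 in ALM-S (SD, n = 3 each). Of those that rose, the lowest were Tpcn1 (log2 difference 1.36) and Cacna2d2 (log2 difference 1.63), both genes of ion channel subunits. Their log2 differences of RN-L from ALM-L were 3.38 and 3.61, and those of RN-S from ALM-S −0.66 and −0.35. In RN, 16 of 19 were higher and 3 lower in RN-L. For the effect of size edgeR called 0 of 12 tested in ALM and 0 of 13 in ES, with an unadjusted p under 0.05 for 4 and 0.

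Mab21 was set beside the neural transcription factors that the study named. Of these 12, 11 were linked and tested against ALM. In RN 8 rose and 2 fell (median log2 difference 3.13), where 20.8% of all features rose and 16.5% fell. The study named the 12 for a difference with size in RN. They were thus chosen on RN libraries, so their counts in RN against another tissue support nothing by themselves. The median was 3.81 for RN-L from ALM-L and 3.55 for RN-S from ALM-S. Against ES, 8 rose and 1 fell in RN (median 2.20), where 16.2% of all features rose and 21.6% fell. In ES against ALM, 3 rose and 2 fell (median 1.26), near the 25.3% and 14.9% of all features. Hox8_1 was at 18.1 ± 12.9 CPM in RN-L and 92.9 ± 25.4 in RN-S, against 0.0638 ± 0.0553 in ALM-L and 0.559 ± 0.131 in ALM-S (SD, n = 3 each), a homeobox gene that like Mab21 was highest in RN-S. Barx had 0.694 ± 0.628 CPM in RN-L and 13.1 ± 6.66 in RN-S (SD, n = 3 each) and no count in ES or ALM. Brn1/2/4, a POU domain gene, had the opposite order, with 42.5 ± 14.7 CPM in RN-L and 8.51 ± 0.667 in RN-S (SD, n = 3 each) and no count in ALM. ScratchX fell in RN by 2.70 on the log2 scale, with 4.38 ± 1.34 CPM in RN-L and 51.95 ± 11.8 in RN-S, against 93.6 ± 39.8 in ALM-L and 102.8 ± 23.4 in ALM-S (SD, n = 3 each). Pax6, the other member that fell, had no count in RN-L and 1.03 ± 0.282 CPM in RN-S, against 1.41 ± 0.354 in ALM-L and 3.63 ± 3.81 in ALM-S (SD, n = 3 each). Sim, a bHLH-PAS gene, rose by 2.36. In RN, 4 of 9 tested were higher and 5 lower in RN-L. For the effect of size edgeR called 0 of 3 tested in ALM and 0 of 6 in ES, with an unadjusted p under 0.05 for 1 and 0.

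The study's Nerve function list, which holds Mab21 itself, was also chosen on RN-L against RN-S. Mab21 is left out of the counts. Of the other genes, 102 of 112 were higher in RN-L, the opposite of Mab21. Their counts in RN against another tissue therefore lean on RN-L and support nothing by themselves. Of 112 tested in RN against ALM, 91 rose and 1 fell (median log2 difference 2.83), beside 20.8% and 16.5% of all features. In RN against ES, 78 rose and 4 fell (median 2.05), beside 16.2% and 21.6% of all features. The median was 4.35 for RN-L from ALM-L and 1.44 for RN-S from ALM-S, with 105 and 90 of 112 positive. In ES against ALM, 41 rose and 16 fell (median 0.68), beside 25.3% and 14.9% of all features. Among the 3 highest was Dbh_1, the gene for dopamine beta-hydroxylase, at 229.9 ± 86.8 CPM in RN-L and 53.5 ± 4.43 in RN-S, against no count in ALM-L and 0.0837 ± 0.0730 in ALM-S (SD, n = 3 each). Gpr54 and Sstr5L_2, peptide receptor genes, had no count in ALM, and were at 78.9 ± 37.5 and 43.5 ± 4.07 CPM in RN-L (SD, n = 3 each). Ppfia1 (log2 difference 1.003) and Trim2 (log2 difference 1.06) rose least, with log2 differences of RN-S from ALM-S of −0.95 and 0.04, and Nacha7, a nicotinic receptor gene, fell by 2.03 on the log2 scale. Cngb1 and Cnga3_2 are in this list as well. For the effect of size edgeR called 0 of 55 tested in ALM and 0 of 73 in ES. An unadjusted edgeR p under 0.05 was found for 9 and 11, beside 1683 of 24482 and 2438 of 30159 over all features.

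Adgb_1, a linked gene (androglobin, which in vertebrates joins a calpain-like protease region to a globin), was picked after its values were seen. The linked genes were not searched for other calpain-related genes. Adgb_1 was at 3.06 ± 0.629 CPM in RN-L and 24.8 ± 8.77 in RN-S, 19.99 ± 13.2 in ES-L and 5.33 ± 0.462 in ES-S, and 57.1 ± 23.7 in ALM-L and 47.7 ± 2.04 in ALM-S (SD, n = 3 each). Its order within RN and its low place in ES against ALM were those of Capn, while ES-L stood above ES-S for Adgb_1 and below it for Capn. The ES comparison of Adgb_1 did not pass (log2 fold change 2.02, SE 0.59, edgeR, Benjamini-Hochberg adjusted p = 0.43).

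The 5 linked genes most like Capn over the 18 libraries were chosen by the likeness of their levels alone. Likeness was the root-mean-square (RMS) difference of log2 CPM centred on each feature's own mean, over 39511 other features, with no test. They were ODF3 (RMS 0.52), Cfap157 (0.61), Oda/Ic1L (0.63), Apn7 (0.65) and Ttc29 (0.67). ODF3 is named for the outer dense fibers of sperm tails, Cfap157 is a cilia- and flagella-associated gene, Oda/Ic1L an intermediate chain of outer dynein arms and Ttc29 an axonemal gene, while Apn7 is an aminopeptidase. ODF3 was at 16.6 ± 4.89 CPM in RN-L, 101.9 ± 13.1 in RN-S, 27.5 ± 23.5 in ES-L, 18.5 ± 1.59 in ES-S, 58.8 ± 17.3 in ALM-L and 109 ± 17.8 in ALM-S (SD, n = 3 each). From 7 to 45 unlinked groupings were nearer to Capn than these 5, the nearest at 0.37, against a median of 1.66 over all features.

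For Mab21 the nearest linked genes were MmeL (RMS 1.05), Slc5a7_4 (1.15), Mtnr1b_1 (1.195), Dmrt2 (1.24) and Hox8_1 (1.24). MmeL is a neprilysin-like peptidase gene, Slc5a7_4 belongs to the family of the choline transporter, Mtnr1b_1 is a melatonin receptor gene and Dmrt2 a DM domain transcription factor. MmeL was at 19.2 ± 9.81 CPM in RN-L and 81.6 ± 7.44 in RN-S, and Slc5a7_4 at 7.95 ± 4.33 in RN-L and 81.1 ± 31.1 in RN-S, with 1.01 CPM or less on average in each group of ES and ALM (SD, n = 3 each). From 12 to 38 unlinked groupings were nearer. Capn and Mab21 were 2.92 apart, and 36745 features were nearer to Capn than Mab21 was. Linked genes are those the study listed for an effect of size, and likeness of profile says nothing of shared function or control.

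**Figure D5:**
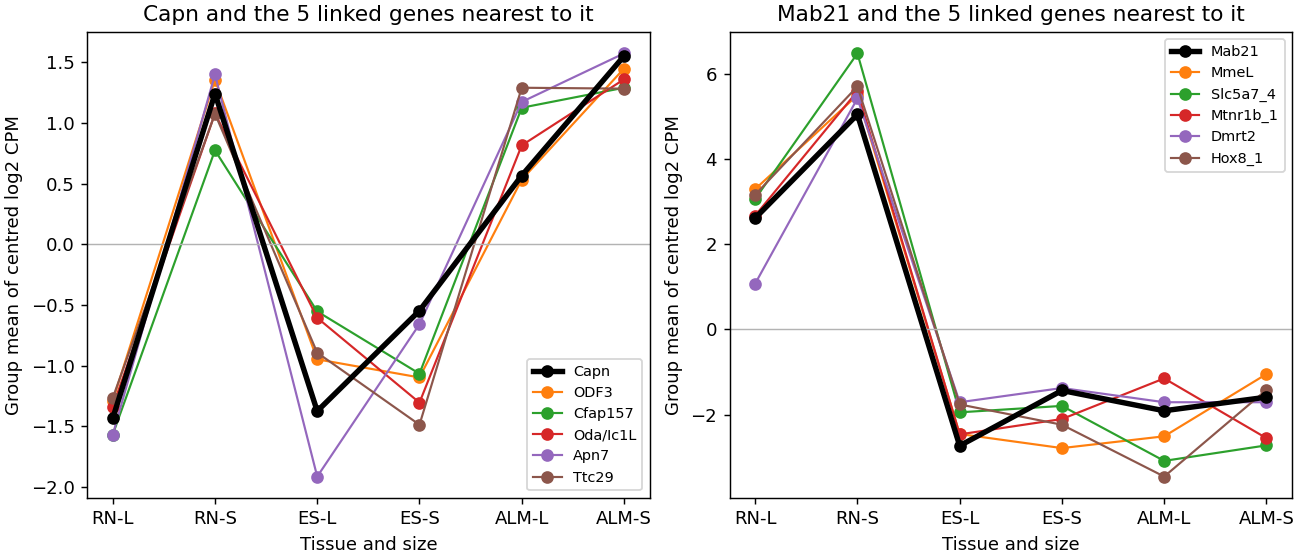
Profiles of Capn (left) and Mab21 (right), each in black, with the 5 linked genes nearest to it, as the group mean of log2 CPM centred on the mean of 18 libraries. Capn and its neighbours are high in RN-S and ALM, and Mab21 and its neighbours in RN, with RN-S above RN-L.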

How the data were processed

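Reads were processed by the authors with Trimmomatic, Trinity, Bowtie2 and RSEM, and the deposited values are estimated counts per Trinity gene grouping, given as whole numbers and not normalized. The deposited table carries no SPU identifiers, so groupings were linked to genes where their counts equalled those printed for the gene in the study's supplementary tables for the libraries of a tissue. A pair of groupings with that sum, or 1 grouping with at least 95% of it, was also accepted, which linked 901 genes. Capn corresponded to a grouping with 99.3% or more of the printed counts and Mab21 to one with 99.9% or more. Both genes, the lists and the tests were chosen with earlier results of these data known. Reads of similar transcripts were divided by RSEM, so copies of a gene can share counts.

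Size was tested within ALM and ES on 6 libraries each, and tissues in a fit to all 18, with edgeR 4.0.16 in R 4.3.3 (filterByExpr, TMM, quasi-likelihood F-test, Benjamini-Hochberg over all features). Intervals are 95%. DESeq2 1.42.0 and other settings were alternatives. Tissues of the same size and year come from the same collection of animals and Large and Small of a year share the sampling year. In a check of pairing, deviations from the group means correlated from −0.38 to 0.23 between Large and Small of a year (1 of 9 pairs above 0.1). Between tissues they correlated from 0.12 to 0.35 in Small animals and from 0.18 to 0.32 for RN-L with ES-L, all above 0.1, but from 0.08 to 0.29 for RN-L with ALM-L and from −0.34 to 0.37 for ES-L with ALM-L. From each list the text names the members called for size in ALM or ES (none) and the 3 highest and 3 lowest called in RN against ALM, besides Capn, Mab21, the marker genes and the 5 nearest linked genes to each. Lists overlap, and Actinin counts in both the calpain and the contractile list. The test was tested on simulated data. Python 3.11.15, pandas 2.3.3, SciPy 1.17.1 and matplotlib made the summaries and plots.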

Additional observations from a re-analysis of the deposited data

How the results depend on the processing

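Mab21 in RN kept direction and call against ALM (5.27 to 6.14 on the log2 scale) and ES (5.80 to 6.26). So did Capn in ES against ALM (−2.12 to −1.22). These ranges cover each alternative run on both sizes and each library left out. With RN-S 2013 alone for RN, Mab21 differed by 6.98 from ALM and 6.85 from ES. These 2 values lie within Small animals and test nothing, since Mab21 was chosen high in RN-S. In RN the size values ran from −2.82 to −2.21 for Capn and from −3.01 to −2.16 for Mab21. Capn in RN against ALM was no longer called without normalization (−0.46). With RN-S 2013 alone for RN it was −0.38, a value within Small animals, where the fit to all libraries gave −0.33. In RN against ES it was 1.73 with RN-S 2013 alone, a value within Small animals that tests nothing, since Capn was chosen high in RN-S. Under no setting with both sizes was Capn called against ES. Its adjusted p against ES (edgeR or DESeq2, up to 0.17) was 0.054 with size and year as a replicate block of animals, an alternative chosen after seeing the data. Signs of uncalled values turned for Mab21 in ES against ALM without normalization (0.18), for the size effect on Mab21 in ALM with the year as a replicate block (−0.29) and with 1 library left out (−0.70 to 0.45), and for the interaction of Capn with 1 library left out (−0.050 to 0.68, negative without ES-L 2011). The cause was not tested.

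The number of features called moved more. For size in ALM, edgeR called 0 without normalization and with the year as a replicate block, 771 without the filter and 114 in the fit to all 18 libraries, and DESeq2 called 342. With 1 library left out it was 0 to 9 (9 without ALM-L 2011, 7 without ALM-S 2013). For size in ES, edgeR called 0 without normalization and with that block, 1765 without the filter and 40 in the fit to all 18 libraries, and DESeq2 called 402. With 1 library left out it was 0 to 876 (876 without ES-L 2010). An unadjusted edgeR p under 0.05 was found for 1683 features in ALM and 2438 in ES. The feature called in ALM was Sm29 and that in ES TRINITY_DN7935_c2_g1, both named after their values were seen. For size in RN it was 9528 without the filter, 3818 with the block and 2379 to 6655 with 1 library left out (2379 without RN-S 2010, 3066 without RN-S 2011, 3732 without RN-L 2013, 3893 without RN-S 2013, 3977 without RN-L 2011). With RN-S 2013 alone for RN it was 2276 against ALM and 5514 against ES. For the interaction it was 0 without normalization, 57 without the filter, 139 with DESeq2 and 0 to 58 with 1 library left out (58 without ES-L 2010), with an unadjusted edgeR p under 0.05 for 1886. The replicate blocks changed no call for Capn or Mab21. Counting limits Mab21 outside RN, at 5 to 55 counts a library.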
